A study of Mus musculus with 12 samples.

Results

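The 31 genes described here belong to the unfolded protein response and the integrated stress response. They were taken as a named list and matched to the arrays by gene symbol. All 31 were found among 12393 genes, with 63 of the 20380 probe sets that carry a single gene symbol, and 19 of the genes had several probe sets. By role they comprise 12 chaperones and folding enzymes of the endoplasmic reticulum (ER), 5 sensors and transcription factors, 5 genes of the ATF4 and CHOP branch, 6 genes of ER-associated degradation and 3 genes of translocation and the ER membrane.

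The arrays came from lung and liver of female nude NCR mice, an athymic strain that lacks most T cells, 7 days after an orthotopic injection. Tumor-bearing mice had received cells of the 4T1 line, a BALB/c mammary carcinoma known for its metastasis to distant organs, and control mice had received PBS by the same route. Each of the 4 groups (tumor-bearing lung, control lung, tumor-bearing liver, control liver) held 3 arrays, and the submitters call the organs of the tumor-bearing mice pre-metastatic. All groups share the nude strain, so no group has a full T cell compartment, and each value is from whole organ RNA.

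Proteins that fold badly in the ER are sensed at its membrane by IRE1 (gene Ern1), PERK (gene Eif2ak3) and ATF6. IRE1 splices the Xbp1 mRNA into the form that encodes an active factor, PERK slows translation and favours synthesis of ATF4, and ATF6 is cleaved to a factor that switches on chaperone genes. ATF4, which other kinases of the integrated stress response also induce, drives amino acid genes and CHOP (gene Ddit3), whose targets include Trib3, Chac1 and Ppp1r15a. Secretory cells such as hepatocytes and plasma cells keep much of this machinery at high levels. Much of the control, including splicing of Xbp1, cleavage of ATF6 and translation of Atf4, need not change the total mRNA that these arrays measure.

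The promoter sequences below are shown because some of the ER chaperones carry a shared element at which ATF6 and XBP1 are known to act, and some of the ATF4 targets another. RefSeq promoters (build GRCm38.p6, 250 bases before to 50 after the start) were given for 27 of the 31 members, and not for Manf, Atf6, Hyou1 and Derl1. The ER stress response element, searched on both strands as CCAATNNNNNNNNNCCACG, was present in 7 of the 27 members (25.9%), against 39 of all 32851 promoter windows (0.119%). It was defined on promoters of such chaperone genes, so its presence here is not independent of the list. The capitals mark its fixed letters, and each site is printed on the strand on which the motif reads, with 12 bases on either side.

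Hspa5, chr2:34772013-34772055, plus strand: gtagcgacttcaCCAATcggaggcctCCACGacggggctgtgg
Calr, chr8:84847063-84847105, plus strand: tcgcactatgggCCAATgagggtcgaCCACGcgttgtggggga
Hsp90b1, chr10:86705626-86705668, minus strand: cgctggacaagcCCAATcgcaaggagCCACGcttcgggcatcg
Hsp90b1, chr10:86705521-86705563, plus strand: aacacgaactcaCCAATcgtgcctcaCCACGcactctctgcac
Canx, chr11:50325788-50325830, minus strand: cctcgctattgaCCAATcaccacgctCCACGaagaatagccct
Pdia6, chr12:17266479-17266521, plus strand: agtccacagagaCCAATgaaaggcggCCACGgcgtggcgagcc
Creld2, chr15:88819508-88819550, minus strand: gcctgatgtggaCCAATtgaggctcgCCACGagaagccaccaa
Syvn1, chr19:6046520-6046562, plus strand: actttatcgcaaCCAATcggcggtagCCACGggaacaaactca

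The Herpud1 promoter held the related ERSE-II, searched as ATTGG and CCACG separated by 1 base and present in 12 of all windows (0.0365%). The composite C/EBP-ATF element at which ATF4 and CHOP are known to bind, searched as TGATGNAA, was present in 4 of the 27 members (14.8%), namely Asns, Chac1, Herpud1 and Trib3, against 1304 windows (3.97%). The core TGACGTGG of the unfolded protein response element occurred in 0 members and in 222 windows (0.676%). A match is a description of the letters and was not tested for binding.

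Herpud1 ERSE-II, chr8:94386365-94386399, plus strand: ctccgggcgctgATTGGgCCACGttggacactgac
Herpud1 composite, chr8:94386305-94386336, minus strand: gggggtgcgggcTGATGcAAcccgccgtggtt
Asns composite, chr6:7693213-7693244, minus strand: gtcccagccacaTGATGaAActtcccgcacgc
Chac1 composite, chr2:119351037-119351068, minus strand: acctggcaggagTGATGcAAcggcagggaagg

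Values are log2 expression per probe set as deposited (GCRMA, a background and quantile normalization), so a difference of 1 is a doubling. A gene is represented by its probe set with the highest mean over the 12 arrays and was tested when it read above 4 on at least 3 of the arrays compared. Of the members, 29 were tested in lung (Ern1 and Trib3 were not) and 30 in liver (Asns was not). Adjusted p-values are from limma with Benjamini-Hochberg adjustment over all genes tested, and a gene was called when its adjusted p was under 0.05. The arrays stand for separate mice within a group, and with 3 per group their number limits the precision.

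The arrays matched their organ labels: the summed level of 11 hepatocyte markers was 19.2 to 19.3 (log2) on the liver arrays and 9.57 to 15.6 on the lung arrays, while 7 of 7 alveolar markers were measured above the filter in lung and 1 of 7 in liver. Tumor-bearing replicate 1 and control replicate 3 of the lung stood apart from the other lung arrays by hepatocyte transcripts, at 15.04 and 15.60 against 9.57 to 11.60 on the rest, and the lung results without them follow the account of the members. The summed level of 10 neutrophil markers was 16.47 to 16.67 in tumor-bearing lung against 12.63 to 14.46 in control lung, with 4 markers called higher, and 10.15 to 11.28 against 6.92 to 9.22 in liver, with 0 called. Markers of B cells and plasma cells, which secrete heavily, lay 0.29 to 0.99 above their mean over the lung arrays (median over 5 tested markers) in tumor-bearing mice and at -0.81 to -0.51 in control mice, with 1 called, while their summed level overlapped (12.98 to 13.22 and 13.03 to 13.16). Monocyte and macrophage markers lay at 0.10 to 0.19 in tumor-bearing lung and -0.20 to -0.10 in control lung (median over 7 tested), with 0 called. Their part in the results below was not tested, and in whole organ RNA fewer cells of a type and less RNA per cell cannot be told apart.

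In lung the ER chaperones and folding enzymes among the members had lower means in tumor-bearing mice. Of the 12 genes 12 had a lower mean, where 52.9% of all 7907 genes tested did, and the median difference was -0.36 against -0.01 over all genes. In 6 of the 12 all tumor-bearing arrays lay below all control arrays, against 9.57% of all genes. Manf was called, and was the only one of the 29 tested members that was, in a comparison that called 0.734% of genes (0.114% in the lower direction).

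**Figure D1:**
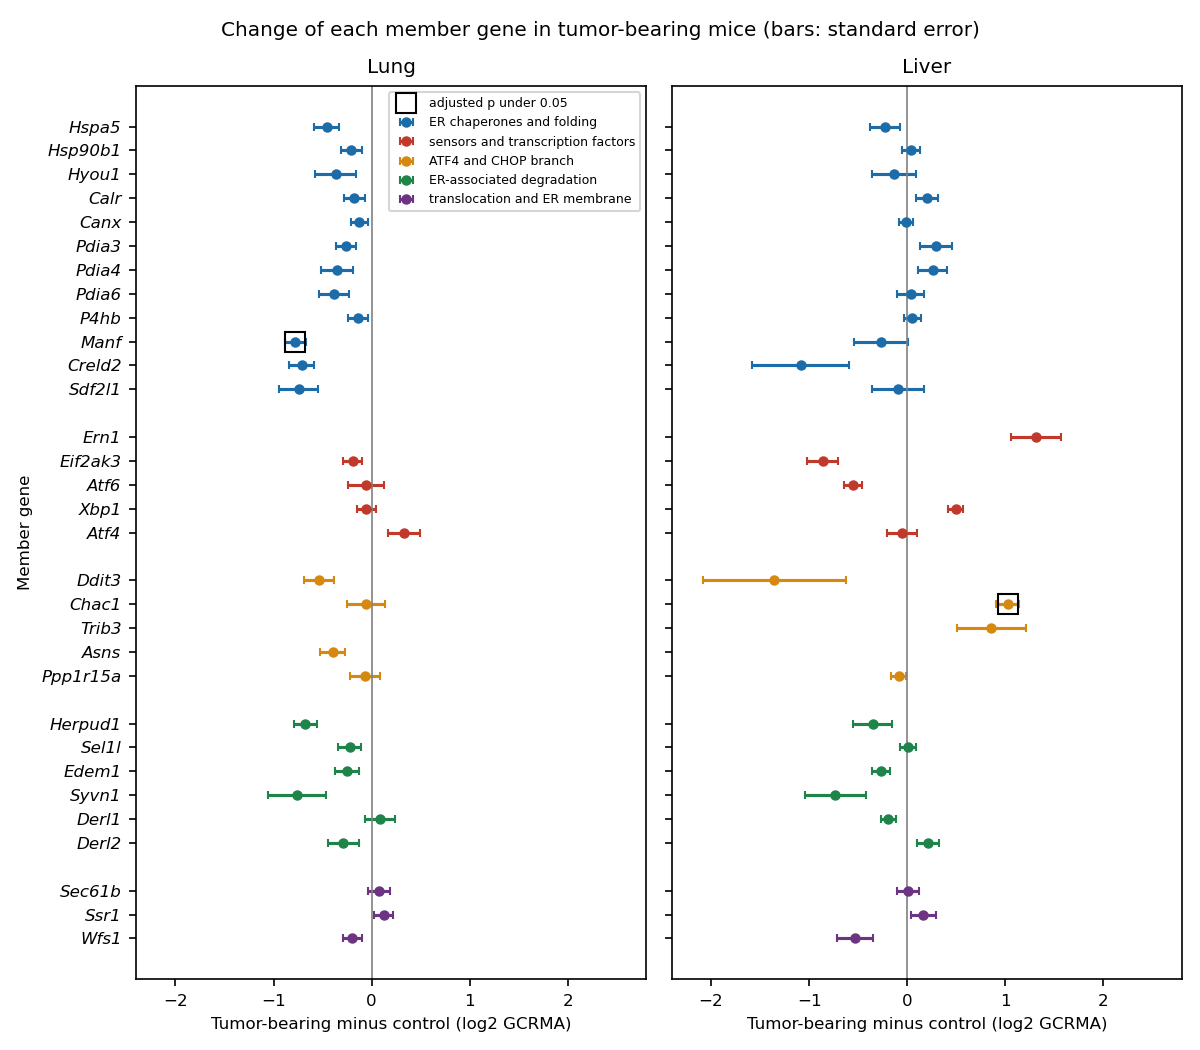
Difference between tumor-bearing and control mice (log2, x axis) for each member gene in lung and in liver, grouped by role, as the mean difference with its standard error (3 arrays per group); squares mark an adjusted p under 0.05, and genes under the filter in an organ have no point. The 12 ER chaperones and folding enzymes (blue) all lie left of zero in lung, with Manf called at -0.78, and lie on both sides of zero in liver, where Chac1 is called at 1.02.

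Manf, an ER-resident and secreted protein that binds the chaperone BiP, read 12.13, 12.09 and 12.39 in tumor-bearing lung and 12.99, 12.97 and 12.98 in control lung. The groups did not overlap, and the control arrays nearly coincided. It fell 1.72-fold (-0.78 ± 0.11, SE, n = 3 per group; limma adjusted p = 0.0466). Leaving out a single array ended the call in 5 of 6 cases (adjusted p up to 0.182), with the difference between -0.87 and -0.72, and with both hepatocyte-rich arrays set aside it was -0.74 (adjusted p = 0.364). The call therefore rests on most arrays of this comparison, while its direction did not change under any of the 18 alternatives.

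The other small ER factors that are known to be induced beside Manf gave differences of like size that did not pass the test. Creld2, an ER protein with disulfide isomerase activity, read 10.18, 10.07 and 10.40 in tumor-bearing lung against 10.80, 10.93 and 11.07 in control lung. Sdf2l1, a partner of BiP in an ER chaperone complex, read 7.96, 7.38 and 8.11 against 8.63, 8.50 and 8.56. Neither gene's groups overlapped, and the differences were -0.71 ± 0.13 for Creld2 (limma adjusted p = 0.0866) and -0.74 ± 0.20 for Sdf2l1 (adjusted p = 0.20).

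Hspa5, which encodes the main ER chaperone BiP, read 13.94, 13.91 and 14.28 in tumor-bearing lung and 14.54, 14.53 and 14.43 in control lung. Every tumor-bearing array lay below every control array, as they did on the second Hspa5 probe set. The difference of -0.46 ± 0.12 (1.37-fold lower) did not pass the test (limma adjusted p = 0.206). The remaining chaperones differed by less: Pdia6 by -0.38, Hyou1 by -0.37, Pdia4 by -0.35, Pdia3 by -0.26, Hsp90b1 by -0.21, Calr by -0.18, P4hb by -0.14 and Canx by -0.12. Of these, which include protein disulfide isomerases (Pdia3, Pdia4, Pdia6, P4hb), the lectin chaperones Calr and Canx and the ER HSP90 (Hsp90b1), only Pdia3 and Canx had groups that did not overlap on the probe set used. Further probe sets were lower without overlap for Hyou1 (-0.71), Hsp90b1 (-0.41), Canx (-0.52) and Calr (-0.15 and -0.27).

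**Figure D2:**
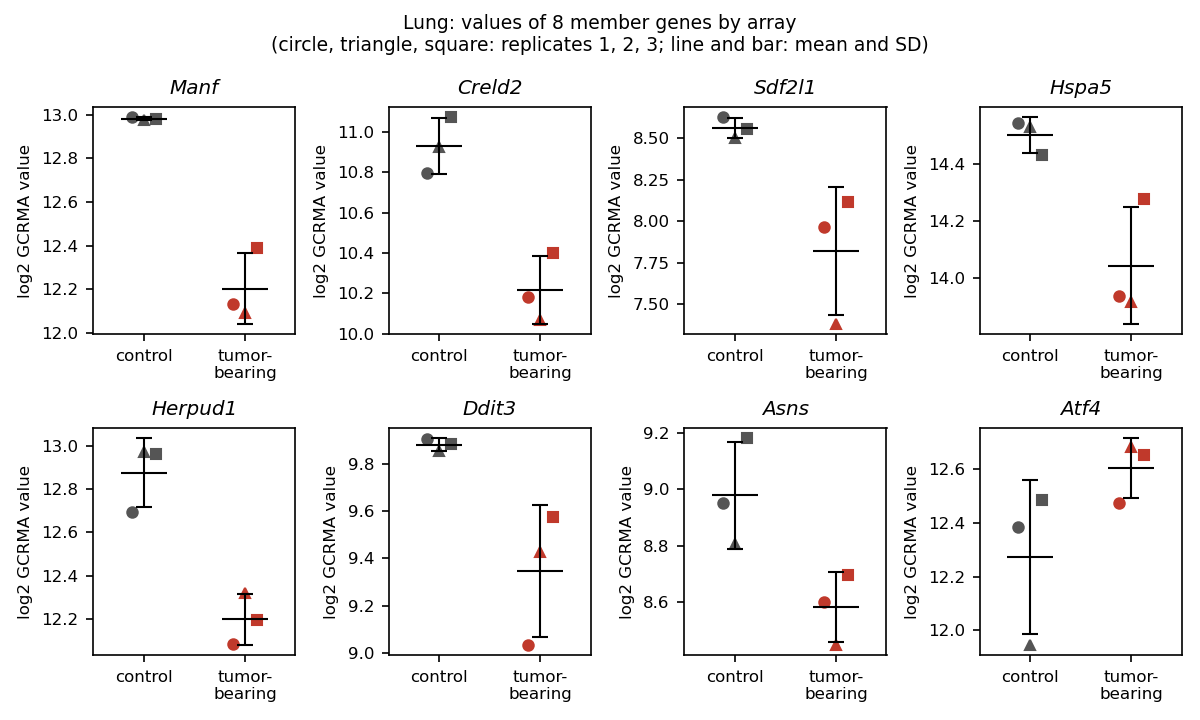
Deposited log2 GCRMA values (y axis, a separate range for each gene) of 8 members on the 6 lung arrays, control in grey and tumor-bearing in red, with the mean and SD of 3 arrays per group. In 7 of the 8 genes every tumor-bearing array lies below every control array, while for Atf4 the tumor-bearing mean is the higher one and the groups overlap. The 8 genes are a choice of members, and Syvn1, whose groups overlap, is not shown. Of the 29 tested members 10 were lower without overlap, against 9.57% of all genes.

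The genes of ER-associated degradation, which carries unfolded proteins out of the ER to the proteasome, mostly leaned the same way in lung, with 5 of 6 lower in the mean and a median of -0.27. None of the 6 passed the test. Herpud1, a membrane protein that organizes the degradation complex, read 12.08, 12.32 and 12.20 in tumor-bearing lung and 12.69, 12.97 and 12.96 in control lung, without overlap. Its difference was -0.68 ± 0.12 (limma adjusted p = 0.0862), and its second probe set gave -0.64, also without overlap. Syvn1, the ubiquitin ligase HRD1, read 7.09, 6.71 and 7.86 against 8.10, 7.76 and 8.08, so that the groups overlapped through tumor-bearing replicate 3 (difference -0.76 ± 0.30, adjusted p = 0.363). Derl2 (-0.29), Edem1 (-0.25) and Sel1l (-0.22) had lower means, and Derl1 a higher one (0.08), which changed sign when its probe sets were averaged (-0.07).

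Targets of the ATF4 and CHOP branch were also lower in the mean in lung, 4 of 4 tested, with a median of -0.23 and 0 called. Ddit3, the stress-induced factor CHOP, read 9.03, 9.43 and 9.58 in tumor-bearing lung and 9.91, 9.85 and 9.88 in control lung. Asns, the asparagine synthetase and an ATF4 target, read 8.60, 8.45 and 8.70 against 8.95, 8.81 and 9.18. In both genes the groups did not overlap, and the differences were -0.54 ± 0.15 for Ddit3 (limma adjusted p = 0.225) and -0.40 ± 0.13 for Asns (adjusted p = 0.281). The means of Ppp1r15a, which encodes the phosphatase subunit GADD34 that restores translation, and of Chac1, a glutathione-degrading enzyme, differed by -0.07 and -0.06, with overlap. Trib3, a pseudokinase induced by ATF4 and CHOP, lay under 4 on all lung arrays, where tumor-bearing arrays read 2.33, 2.44 and 2.51 and control arrays 3.48, 3.88 and 3.71, and was not tested in lung.

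None of the sensors and factors passed in lung. Atf4 read 12.48, 12.68 and 12.65 in tumor-bearing lung against 12.39, 11.95 and 12.48 in control lung, a higher mean (0.33 ± 0.16, limma adjusted p = 0.467) with tumor-bearing replicate 1 just below control replicate 3. This probe set is of a type that can detect related transcripts, and a second Atf4 probe set gave 0.10 with overlap. Eif2ak3 differed by -0.19 ± 0.10, Atf6 by -0.06 ± 0.19 and Xbp1 by -0.05 ± 0.09 (another Xbp1 probe set was lower by 0.26 without overlap), none called, and Ern1 lay under 4 on all lung arrays. Of the membrane genes, Wfs1, an ER membrane protein that restrains the stress response, was lower without overlap (-0.20 ± 0.09, limma adjusted p = 0.454). Ssr1 (0.12) and Sec61b (0.08), of the translocation machinery, had higher means that did not pass. Other Ssr1 probe sets gave -0.24 without overlap and -0.15 with overlap.

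Over all members in lung, 25 of 29 had lower means, 10 were lower without overlap and 0 were higher without overlap (8.99% of all genes were higher in that way). The median difference of the members was -0.22. At an unadjusted p under 0.05, 10 members were lower and 0 higher, where 6.46% of all genes were lower and 6.72% higher. Over all probe sets of the members above the filter, 45 of 52 had lower means (55.2% of all probe sets did), 22 were lower without overlap (10.1% of all) and 0 were higher without overlap (8.1% of all). With both hepatocyte-rich arrays left out, the difference was -0.63 for Creld2, -0.82 for Sdf2l1, -0.44 for Hspa5, -0.57 for Herpud1, -0.65 for Syvn1, -0.38 for Ddit3, -0.31 for Asns, -0.20 for Wfs1 and 0.50 for Atf4, and 0 of all genes were called. In that setting 24 of 29 members and 12 of 12 ER chaperones still had lower means. The same setting left cardiac muscle markers uneven, with 7 of 7 tested higher in tumor-bearing lung. Their median difference was 2.21 there and 0.07 with all lung arrays, and the part of cardiac transcripts was not tested. Across the 18 alternatives the number of ER chaperones with lower means was 12 throughout.

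In liver the response did not move in one direction. Of 30 tested members 16 had lower and 14 higher means, with a median of -0.03 (-0.07 over all genes, of which 60.1% had lower means), and 1 was called where 1.87% of all genes were (0.635% in the higher direction). Centring each array on its median turned the members' median to 0.09. The ER chaperones divided evenly, 6 lower and 6 higher with a median of 0.01, and none had groups that did not overlap. At an unadjusted p under 0.05, 5 members were lower and 3 higher, where 17.7% and 8.17% of all genes were. The 7 members without overlap were the sensors Eif2ak3, Atf6 and Ern1, the factor Xbp1, Chac1 of the ATF4 branch, and Edem1 and Derl1 of the degradation genes. Of the 30 tested, 4 were lower and 3 higher in that way, where 22.7% and 10.4% of all genes were, so the members did not exceed those shares.

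Chac1 was the called gene in liver. It read 8.49, 8.71 and 8.46 in tumor-bearing liver and 7.34, 7.57 and 7.68 in control liver, all tumor-bearing arrays above all control arrays. It rose 2.03-fold (1.02 ± 0.12, SE, n = 3 per group; limma adjusted p = 0.0338). Leaving out any of the 6 arrays ended the call, with differences from 0.93 to 1.10 and limma adjusted p from 0.0604 to 0.129. Control liver replicate 2 and control lung replicates 1 and 3 read an identical value, 7.5731. The control level of this probe set may therefore be a background value, which was not tested. The same limit applies to the Chac1 differences in lung and between organs.

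The other genes of that branch did not pass the test in liver and differed in direction. Trib3 read 5.60, 5.58 and 4.77 in tumor-bearing liver against 3.88, 4.96 and 4.54 in control liver, a higher mean with overlap (0.86 ± 0.36, limma adjusted p = 0.201). Ddit3 read 5.68, 7.28 and 8.66 against 8.74, 8.46 and 8.49, so that tumor-bearing replicates 1 and 2 were low and replicate 3 lay among the controls (-1.36 ± 0.73, adjusted p = 0.297). Ppp1r15a differed by -0.09 ± 0.07. Asns was under the filter, with control arrays at 3.25, 3.25 and 3.39 and tumor-bearing arrays at 3.10, 4.51 and 4.11.

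The sensors lay on different sides in liver, none past the threshold. Ern1 read 5.0, 5.69 and 4.97 in tumor-bearing liver and 4.10, 3.55 and 4.08 in control liver, near the filter value. Xbp1, the target of IRE1, read 13.74, 13.77 and 13.64 against 13.13, 13.23 and 13.32. Both were higher without overlap, by 1.31 ± 0.25 for Ern1 (limma adjusted p = 0.0604) and 0.49 ± 0.08 for Xbp1 (adjusted p = 0.0529), and 4 of 4 Xbp1 probe sets had higher means, 3 of them without overlap. These probe sets were not used to separate spliced from unspliced Xbp1.

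The PERK and ATF6 transcripts lay on the other side. Eif2ak3 read 7.91, 8.50 and 8.21 in tumor-bearing liver against 9.03, 9.12 and 9.05 in control liver. Atf6 read 9.09, 9.30 and 9.17 against 9.65, 9.75 and 9.83. Neither pair of groups overlapped, and the differences were -0.86 ± 0.16 for Eif2ak3 (limma adjusted p = 0.0576) and -0.55 ± 0.09 for Atf6 (adjusted p = 0.0529). Atf4 differed by -0.05 ± 0.15 with overlap, and its sign changed under 6 of 17 alternatives. A limma fit of all 12 arrays together pools the spread of both organs. There Ern1, Xbp1, Eif2ak3 and Atf6 passed the threshold in liver with adjusted p of 0.00775, 0.00928, 0.00696 and 0.0492. Over the alternatives Ern1 passed in 2 of 15, Xbp1 in 5 of 17, and Eif2ak3 and Atf6 in 3 of 17 each. None of them passed with a single array left out, without a filter or with the replicate block.

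**Figure D3:**
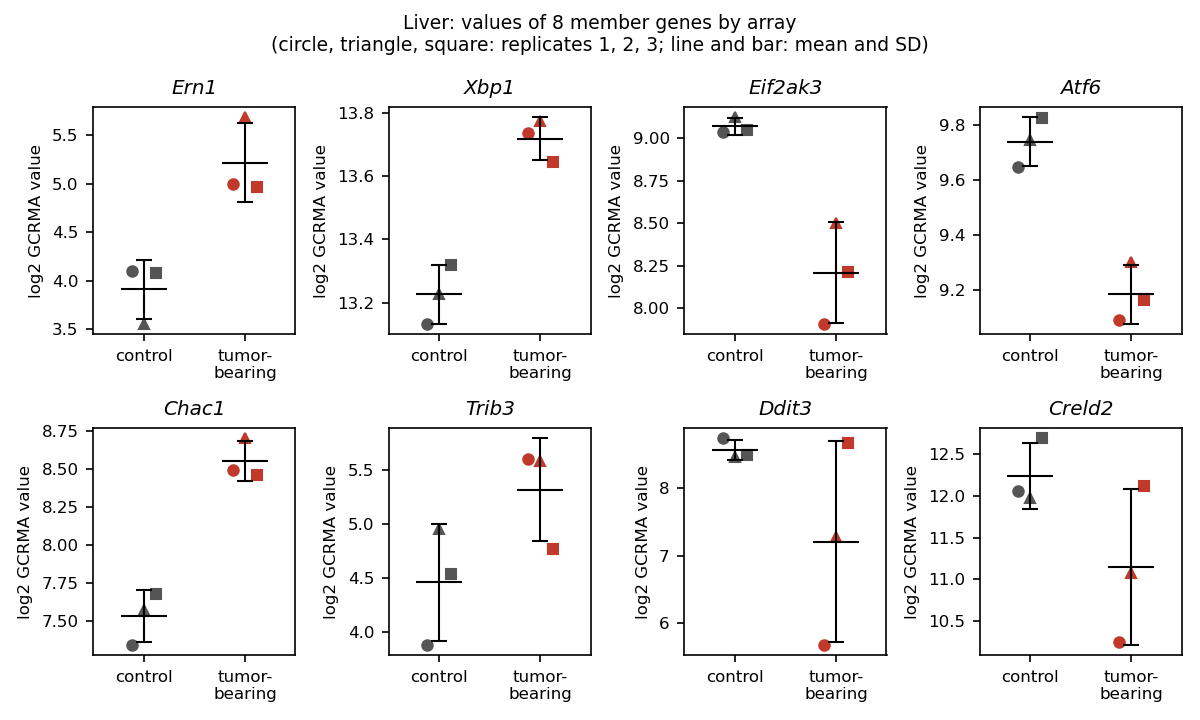
Deposited log2 GCRMA values (y axis, a separate range for each gene) of 8 members on the 6 liver arrays, control in grey and tumor-bearing in red, with the mean and SD of 3 arrays per group. Ern1, Xbp1 and Chac1 are higher and Eif2ak3 and Atf6 lower without overlap, while Ddit3 and Creld2 spread widely over the tumor-bearing arrays with replicate 3 highest.

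Among the ER chaperones of the liver, Creld2 had the largest difference in the mean and a wide spread. It read 10.26, 11.08 and 12.12 in tumor-bearing liver against 12.05, 11.97 and 12.68 in control liver (-1.08 ± 0.49, limma adjusted p = 0.228). Pdia3 had the largest difference in the other direction, at 13.07, 12.99 and 13.48 against 12.92, 12.70 and 13.05 (0.29 ± 0.17, adjusted p = 0.321). Hspa5 differed by -0.23 ± 0.15 and Manf by -0.27 ± 0.27, both with overlap. The other 8 chaperones lay between -0.14 (Hyou1) and 0.26 (Pdia4). Probe sets of a gene disagreed here, in part at low signal. Another Hyou1 probe set was higher by 2.39 without overlap, but read only 3.48, 2.73 and 3.25 in control liver. A better measured one gave 0.38 with overlap. Of the further Canx probe sets 1 was higher by 0.19 and 1 lower by 0.46, both without overlap. The lower one read an identical 7.023 on tumor-bearing liver replicates 1 and 2 and control lung replicate 2. All 3 Calr probe sets had higher means, both further ones without overlap (0.46 and 0.47).

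Much of the spread among chaperones within each liver group followed one array. Tumor-bearing replicate 3 was the highest of its group for 12 of 12 ER chaperones, where it was for 33.1% of all genes, and control replicate 3 was the highest of its group for 11 of 12, where it was for 30.8%. In lung tumor-bearing replicate 2 was the lowest of its group for 9 of 12, where it was for 45% of all genes.

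Of the remaining liver members, Syvn1 read 8.47, 9.0 and 9.62 in tumor-bearing mice against 9.71, 9.57 and 10.01 in control mice (-0.73 ± 0.31, limma adjusted p = 0.204). Edem1, which hands misfolded glycoproteins to degradation, and Derl1, a channel component, were lower without overlap by 0.26 and 0.19 on the log2 scale, and neither passed. Each of these directions rests on 1 probe set: the other Edem1 probe set was higher by 0.22 without overlap, and the 3 other Derl1 probe sets gave 0.01, 0.04 and -0.01 with overlap. Herpud1 differed by -0.35 ± 0.20, Derl2 by 0.21, and Sel1l, the partner of HRD1, by 0.01. Other Sel1l probe sets disagreed, at 0.26 without overlap, and at -0.41 and 0.17 with overlap. Wfs1 was lower in the mean (-0.53 ± 0.19, adjusted p = 0.15), Ssr1 higher (0.17 ± 0.12) and Sec61b level at 0.00 ± 0.11. In all, 4 members were lower without overlap (22.7% of all genes were) and 3 were higher without overlap (10.4%). By probe set, 22 of the 54 tested in liver had lower means (58% of all probe sets did), 11 were higher without overlap (11.7% of all probe sets) and 5 lower (21.2%).

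Whether lung and liver differed in their response was tested as an interaction on all 12 arrays, taken as independent, although the lung and liver of a mouse may both be among them. Trib3 was the only member called, in a comparison that called 1.55% of 8433 genes: its difference in lung minus that in liver was -2.12 ± 0.40 (limma adjusted p = 0.0353). Since Trib3 lay under 4 on all lung arrays, the lung side of that value is from signals near the lowest the arrays report (2.04). With values under 4 set to 4, the same contrast was -0.82 and did not pass (adjusted p = 0.268). With the replicate number as a block, which stands for the mouse if numbers mark mice, it did not pass either (adjusted p = 0.0733).

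The other contrasts between organs missed the threshold. They were -1.08 ± 0.24 for Chac1 (limma adjusted p = 0.0603), -0.55 ± 0.12 for Xbp1 (adjusted p = 0.065) and -1.38 ± 0.31 for Ern1 (adjusted p = 0.065), each with the liver change the higher. For Eif2ak3 the contrast was 0.67 ± 0.19 (adjusted p = 0.121) and for Atf6 0.49 ± 0.22 (adjusted p = 0.285). Among the ER chaperones 11 of 12 contrasts were negative, where 43.5% of all genes were negative, and none was called: Manf differed by -0.51 ± 0.31 (adjusted p = 0.433), Hspa5 by -0.23 ± 0.20 (adjusted p = 0.601) and Pdia3 by -0.55 ± 0.20 (adjusted p = 0.201). The chaperone differences in lung were thus not shown to differ from those in liver.

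**Figure D4:**
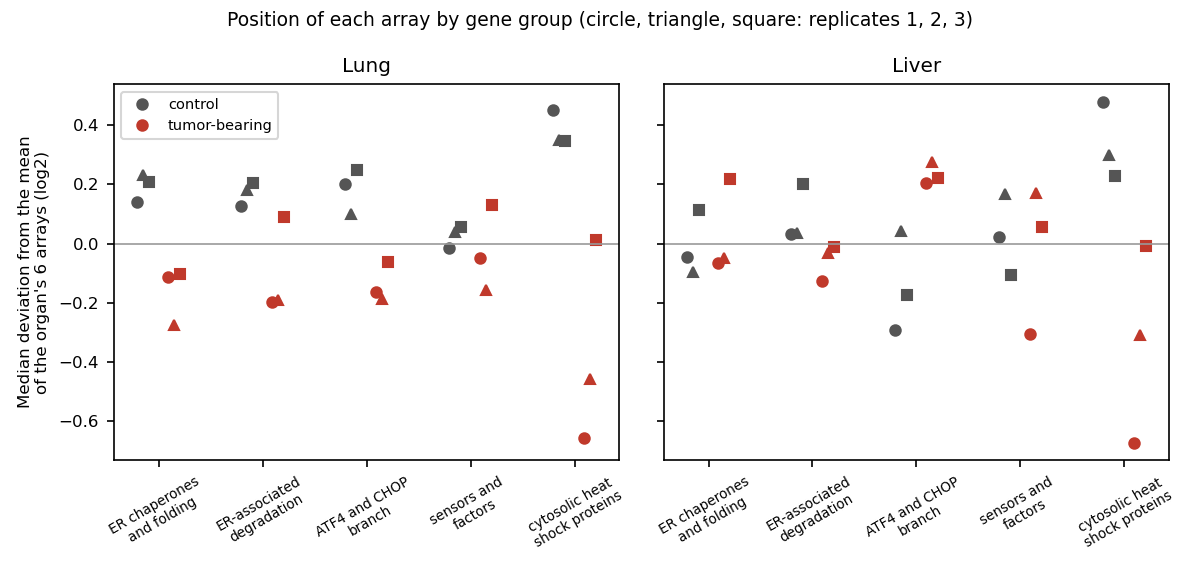
Position of each array (y axis, log2) in a gene group, as the median over the group's tested genes of the value minus the gene's mean over the 6 arrays of the organ; control in grey, tumor-bearing in red. In lung the tumor-bearing arrays lie at -0.28 to -0.10 for ER chaperones and the control arrays at 0.14 to 0.23, whereas in liver both groups overlap, and cytosolic heat shock genes are lower in tumor-bearing mice of both organs.

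Set side by side, the member ER chaperones and the tested members of the ATF4 and CHOP branch had lower means together in lung and not in liver. The 4 branch genes tested were not the same in both organs, as lung lacked Trib3 and liver lacked Asns. In lung Chac1 (-0.06) and Ppp1r15a (-0.07) were near level, and each changed sign in 2 of 18 alternatives. In lung the ATF4 and CHOP branch lay at -0.19 to -0.06 on the tumor-bearing arrays and 0.10 to 0.25 on the control arrays, as the ER chaperones did on the same arrays (-0.28 to -0.10 and 0.14 to 0.23). In liver the branch lay at 0.20 to 0.28 on tumor-bearing and -0.29 to 0.04 on control arrays. That is a median over 4 genes, of which 2 had higher means (Chac1 and Trib3) and 2 lower (Ddit3 and Ppp1r15a). The chaperones lay at -0.07 to 0.22 and -0.09 to 0.11 on the same arrays. The other ATF4 and CHOP targets did not follow the branch. In lung they overlapped, at -0.11 to 0.03 on tumor-bearing and 0.002 to 0.05 on control arrays. In liver they lay lower in tumor-bearing mice, at -0.11 to 0 against 0.01 to 0.11. This shift was no larger than that of all genes: 16 of 30 had lower means with a median difference of -0.04. Over all genes 60.1% had lower means and the median was -0.07. All these positions describe the arrays and carry no test.

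Cytosolic heat shock genes, which the factor HSF1 controls, had lower means in both organs. In lung 22 of 23 had lower means with 3 called, and in liver 23 of 23 with 1 called, the medians being -0.79 and -0.66. Over all genes 52.9% had lower means and 0.734% were called in lung, and 60.1% and 1.87% in liver. Without both hepatocyte-rich lung arrays 22 of 23 had lower means and 0 were called. Dnajb2, a J-domain co-chaperone, fell in both organs, by 0.79 in lung (limma adjusted p = 0.0313) and by 0.85 in liver (adjusted p = 0.0419) on the log2 scale. The heat shock positions of the lung arrays were 0.35 to 0.45 in control and -0.66 to 0.01 in tumor-bearing mice. Their part in the lower chaperone levels of lung was not tested.

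The level from which each organ started differed for many members, though for a smaller share of them than of all genes. The median difference of the members, control lung minus control liver, was -0.21. Of 29 members tested between control lung and control liver 17 were called, where 81.1% of all genes were. Chaperone and degradation genes were lower in lung: 7 of 12 ER chaperones and 5 of 6 degradation genes were called lower (35.5% of all genes were), led by Syvn1 (-1.78 ± 0.15, limma adjusted p = 8.27e-05), Pdia4 (-1.64 ± 0.17, adjusted p = 0.000188) and Sdf2l1 (-1.50 ± 0.17, adjusted p = 0.00026). Hspa5 (-0.22 ± 0.10, adjusted p = 0.0823) and Manf (-0.34 ± 0.17, adjusted p = 0.1) did not pass.

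Of the 29 members 5 were called higher in control lung than in control liver, where 45.6% of all genes were, and these were Atf4, Xbp1 and 3 of the 4 tested genes of the ATF4 and CHOP branch. Ddit3 differed by 1.32 ± 0.10 (limma adjusted p = 3.99e-05), Ppp1r15a by 3.12 ± 0.10 (adjusted p = 1.21e-06) and Atf4 by 0.82 ± 0.16 (adjusted p = 0.00407). Asns read 8.98 ± 0.19 (SD) in control lung and lay under 4 on all control liver arrays, so that it was at least 31.5-fold higher in lung when liver is taken at 4 (adjusted p = 2.31e-07). Xbp1 was also higher in lung, by 0.48 ± 0.08 (adjusted p = 0.00194). Chac1 (-0.16 ± 0.20) did not differ beyond its error, and Trib3 was under the filter in this comparison. Of 32 other ATF4 and CHOP targets tested, 15 were called lower and 10 higher in lung.

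**Figure D5:**
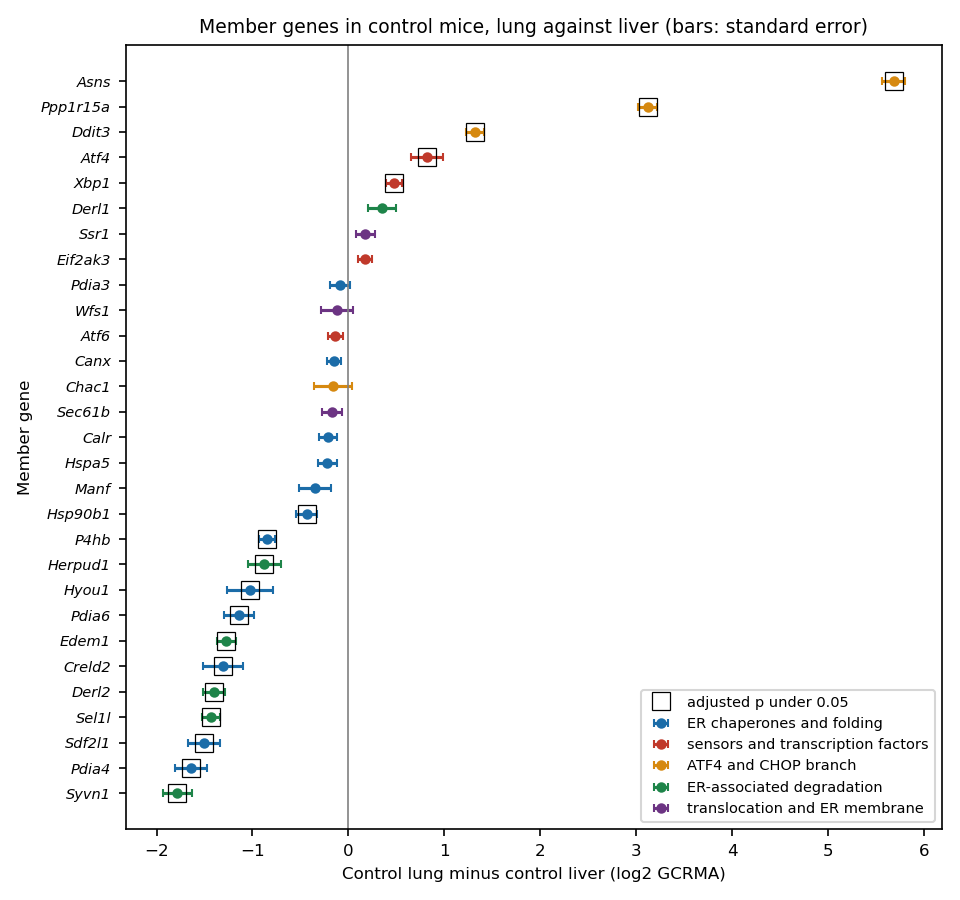
Difference between control lung and control liver (log2, x axis) for the 29 members tested, ordered by size, as the mean difference with its standard error (3 arrays per organ); colours give the role and squares mark an adjusted p under 0.05. The 5 members called higher in lung are factors or ATF4 branch genes, and the 12 called lower are ER chaperones and degradation genes.

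Other genes of the pathway, 118 in number over 5 lists and none of them a member, gave few calls. Of the 106 tested in lung 76 had lower means with 0 called (11 lower and 0 higher at an unadjusted p under 0.05), and of the 106 tested in liver 65 had lower means with 1 called (22 lower and 3 higher at an unadjusted p under 0.05). Over all genes 52.9% had lower means in lung and 60.1% in liver. At an unadjusted p under 0.05, 6.46% of all genes were lower and 6.72% higher in lung. In liver 17.7% were lower and 8.17% higher. The liver counts of lower pathway genes are thus near those of all genes, while the 3 higher are a smaller share. The medians of the pathway genes were -0.07 in lung and -0.06 in liver. Without both hepatocyte-rich lung arrays 78 of 106 had lower means. The gene called was Ubxn4 (erasin), an ER membrane adaptor of the degradation machinery, which fell by 0.66 ± 0.10 in liver on the log2 scale (limma adjusted p = 0.0484).

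Among further ER chaperones and oxidoreductases, 11 of 19 in lung and 15 of 19 in liver had lower means, with 0 called. In lung their median was -0.03, against -0.01 over all genes, and 5 were lower and 1 higher without overlap. Over all genes 9.57% were lower and 8.99% higher in that way. The uniform direction of the 12 member chaperones in lung was thus not seen in these genes. The largest differences in lung were -0.49 for Erp44, which retains clients in the early secretory pathway (limma adjusted p = 0.0884), and 0.40 for Cnpy2 (adjusted p = 0.427). In liver they were -0.74 for Dnajb9, the BiP co-chaperone ERdj4 (adjusted p = 0.0989), and -0.71 for Txndc11 (adjusted p = 0.0638). Further ATF4 and CHOP targets had lower means in 20 of 31 in lung and 16 of 30 in liver, with 0 called. The largest lung differences there were -1.43 for the cysteinyl-tRNA synthetase gene Cars (adjusted p = 0.192) and -1.29 for Cth (adjusted p = 0.437), and the largest in liver were -2.46 for Vldlr (adjusted p = 0.30) and -1.39 for Ddit4 (adjusted p = 0.157).

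Further sensors, kinases and factors had lower means in 7 of 12 in lung and 8 of 13 in liver, with 0 called. Atf6b, the relative of Atf6, was lower by 0.61 on the log2 scale in lung (limma adjusted p = 0.154) without overlap, and Creb3l2 by 0.33 in lung (adjusted p = 0.427) and 0.92 in liver (adjusted p = 0.0614), where Nfe2l1 followed at -0.69 (adjusted p = 0.102). Further degradation genes had lower means in 15 of 17 in lung and 14 of 17 in liver, with Nploc4 (-0.38, adjusted p = 0.376) and Ube2g2 (-0.36, adjusted p = 0.225) the largest in lung. Genes of translocation, glycosylation and export had lower means in 23 of 27 in lung and 12 of 27 in liver, with the largest differences at -0.31 for Stt3b (adjusted p = 0.329) and -0.31 for Sec24d (adjusted p = 0.281) in lung, and -0.57 for Sec23b (adjusted p = 0.106) and -0.35 for Sec24d (adjusted p = 0.239) in liver.

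All 7 genes with the ER stress response element shown above had lower means in lung, between -0.76 (Syvn1) and -0.12 (Canx), as did the chaperones without it, and in liver they ranged from -1.08 (Creld2) to 0.20 (Calr). Of the genes with the C/EBP-ATF element, Herpud1 and Asns were lower in lung without overlap (-0.68 and -0.40), while Chac1 differed by -0.06 and Trib3 was under the filter. In liver Chac1 was called higher, Trib3 had a higher mean (0.86) and Herpud1 a lower one (-0.35), and Asns was under the filter.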

How the data were processed

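Lung and liver RNA from tumor-bearing and control mice was hybridised to 12 Affymetrix mouse arrays, 1 per sample. The deposited values are log2 GCRMA summaries per probe set, and GCRMA and limma are named in the submitters' processing notes. Their versions and settings are not given in the sources here, and no batch or scan date is labelled. Among 22626 probe sets, 691 list several genes and 1555 were not listed with a gene, and these were left out, among them 1 probe set shared by Sec61b and Gm10320. From the deposited log2 values, limma 3.58.1 in R 4.3.3 (lmFit and eBayes, neither trend nor robust) compared groups within lung and liver (6 arrays each), between control organs, and as an interaction over 12 arrays, adjusting by Benjamini-Hochberg and calling at 0.05. The code was tested on simulated data. Each ± beside a difference is limma's standard error.

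The members and gene lists were chosen with earlier results of these data known. Members were named where they passed in lung, liver or the interaction, or had one of the 2 largest absolute changes of their role in an organ, with Hspa5, Xbp1, Atf4 and Ddit3 always. Further pathway genes were named where they passed, otherwise the 2 largest per list and organ. The other members, and those singled out between control organs or by further probe sets, were named after their values were seen. Alternatives covered the filter (none, or above 6), the probe sets (their mean, or each alone), a further quantile normalization, median centring, trend and robust options, array weights, 1 fit of all arrays, the replicate number as a block, and arrays left out. Replicate numbers were not taken to pair samples: correlations of same-numbered deviations were -0.36 to 0.29 in lung, -0.03 to 0.12 in liver and 0.02 to 0.09 between organs.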

Additional observations from a re-analysis of the deposited data

Results flagged for a closer look

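The response of Trib3, a pseudokinase induced by ATF4 and CHOP, differed between organs by the interaction test, at -2.12 ± 0.40 (log2, lung change minus liver change; limma adjusted p = 0.0353). Its mean was higher in tumor-bearing liver by 0.86, with overlap, and its 6 lung arrays all lay under 4, where tumor-bearing arrays read 2.33 to 2.51 and control arrays 3.48 to 3.88. The contrast passed in 6 of 22 alternatives, and with values under 4 set to 4, an alternative chosen after seeing the data, it was -0.82 (adjusted p = 0.268). A second Trib3 probe set was under the filter in both organs.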

How the results depend on the processing

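Within an organ few members were called, and which were depended on the setting. In lung 1 member was called, and 0 without a filter, with every probe set tested, with all 12 arrays in 1 fit, with the replicate block or without both arrays rich in hepatocyte transcripts, and 3 with trend and robust options (Manf, Creld2 and Herpud1). In liver 1 was called, and 0 without a filter or with the replicate block, 4 with a filter at 6 or trend and robust options, 3 with median centring, 2 with array weights and 5 with 1 fit of all arrays. Between organs 1 was called, and 0 with a filter at 6, the mean of probe sets, a further quantile normalization, the replicate block or without both hepatocyte-rich arrays, 2 with every probe set or trend and robust options, and 3 with median centring or array weights. Leaving out 1 array gave 0 to 1 calls in lung, 0 in liver and 0 to 1 between organs. Over the alternatives Manf lay between -0.87 and -0.72 in lung (adjusted p 0.0173 to 0.364, passing in 8 of 18) and Chac1 between 0.93 and 1.14 in liver (adjusted p 0.00773 to 0.129, passing in 9 of 17). Between control organs 17 to 22 members were called. The members' median in liver moved to 0.0859 with median centring. The pairing of samples by number is not stated. Between organs the replicate block joined the lung and liver arrays of a condition with the same number. With it 14 genes were called over all genes (131 without it). Within an organ it joined a tumor-bearing and a control array, which are different mice, so it does not pair samples of a mouse. There 1 gene was called in lung (58 without it) and 0 in liver (144). Each of the 12 arrays correlated best with its own number in the other organ, a hint from the data only.

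Some small differences changed sign, and the cause was not tested. In lung these were Atf6 without both hepatocyte-rich arrays (0.0669), and Derl1 (-0.0689) and Ssr1 (-0.0884) with the mean of probe sets. In liver the mean of probe sets gave Hyou1 0.8758, Atf4 0.006 and Ssr1 -0.023. A further quantile normalization gave Canx 0.0082, Sdf2l1 0.0107 and Atf4 0.0206 there, median centring gave Canx 0.1074, Sdf2l1 0.022, Atf4 0.0643 and Ppp1r15a 0.0294, and array weights gave Canx 4e-04 and Atf4 1e-04. With single arrays left out, the lung values ranged from -0.2635 to 0.0755 for Atf6, -0.2597 to 0.0408 for Chac1, -0.0571 to 0.2144 for Derl1, -0.2032 to 0.0099 for Ppp1r15a and -0.101 to 0.0071 for Xbp1. The liver ranges were -0.151 to 0.0862 for Atf4, -0.0511 to 0.0232 for Canx, -0.0136 to 0.103 for Hsp90b1, -0.2821 to 0.1029 for Hyou1, -0.0194 to 0.0929 for P4hb, -0.0392 to 0.1682 for Pdia6, -0.3299 to 0.0898 for Sdf2l1, -0.0584 to 0.1038 for Sec61b and -0.0433 to 0.0462 for Sel1l.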
